A study of Mus musculus with 9 samples.

Results

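The genes described here are 8 rows of a count table of single cells from the mouse central amygdala: Dlx1, Dlx2, Dlx5, Dlx6, Dlx6as1, Sp8, Sp9 and Pax6, out of 22601 genes. They were chosen by name, with earlier results of these data known, and all 8 were found in the table. The cells came from wild-type B6 mice. They were microdissected from acute brain slices, dissociated and pooled over slices, and sequenced as 9 samples of 1 group. The samples carry 3 animal numbers and 3 date fields. The labels state neither age nor treatment, nor whether separate animals gave the samples, and the p-values therefore cover only sample-to-sample spread, which may be technical. Cells were therefore compared inside each sample, as cells positive and cells negative for a marker, and the sample was the replicate.

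Dlx genes encode homeodomain transcription factors of the ganglionic eminences, the embryonic source of forebrain inhibitory neurons, where they switch on the genes of GABA synthesis. They lie in the genome as pairs, and Dlx6as1 (RefSeq Dlx6os1, also known as Evf2) is a long non-coding RNA transcribed from the strand opposite to Dlx6. Sp8 and Sp9 are related zinc-finger factors of the lateral and caudal eminences, and in mice Sp9 is needed for striatal neurons of the indirect pathway. Pax6 is a paired-box and homeodomain factor that marks progenitors and some inhibitory neurons derived from them. The markers used to divide the neurons were Prkcd (protein kinase C delta) and Sst (somatostatin), which label the main classes of central amygdala neuron, and 3 transcription factors, the LIM-homeodomain factor Isl1, the nuclear receptor Nr2f2 (COUP-TFII) and the forkhead factor Foxp1.

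A pair of the members' upstream sequences is shown because Dlx6as1 and Sp9 had the largest called changes in opposite directions between Sst-positive and Sst-negative neurons. The windows are the 240 bases that end 10 bases before a transcription start, read 5′ to 3′ on the gene's strand, from RefSeq on GRCm38.p6. Capitals mark TAATTA, a core bound by homeodomain proteins, in the first window. In the second they mark the GC box bound by Sp-family proteins, GGGCGG, which lies there as its reverse complement; both motifs were searched on both strands. The Dlx6as1 window is chr6:6861694-6861933 on the minus strand, before the second of its listed starts, and the Sp9 window is chr2:73271676-73271915 on the plus strand.
Dlx6as1: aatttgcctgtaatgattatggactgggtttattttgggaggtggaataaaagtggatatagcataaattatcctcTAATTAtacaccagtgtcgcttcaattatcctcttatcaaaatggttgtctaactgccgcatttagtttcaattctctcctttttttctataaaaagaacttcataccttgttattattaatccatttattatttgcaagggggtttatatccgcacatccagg
Sp9: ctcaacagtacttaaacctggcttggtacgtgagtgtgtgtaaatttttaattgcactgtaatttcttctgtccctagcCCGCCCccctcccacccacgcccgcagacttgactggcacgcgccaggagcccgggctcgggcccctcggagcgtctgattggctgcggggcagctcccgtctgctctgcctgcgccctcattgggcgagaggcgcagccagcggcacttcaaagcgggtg
The Dlx6as1 window held 1 homeodomain core and 0 GC boxes, and the Sp9 window held 0 cores and 1 GC box. Of 32851 windows of the same length in the table, 4.77% held the core and 31.3% held the box. The core is its own reverse complement, and the motifs do not overlap each other in these windows. The motifs were picked after the sequences were seen, and a match describes letters, not a bound site.

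The table held 829 cells with 8522750 to 22730327 gene counts per sample, and 810 cells were classed as inhibitory neurons. Positive means that a gene took 1 or more of every 10000 gene counts in the cell, not counting spike-ins. The inhibitory class required a positive call for any of Gad1, Gad2 and Slc32a1, the genes of GABA synthesis and vesicle loading, and excluded cells positive for the glutamate transporters Slc17a7 or Slc17a6. Gad1 was positive in 89.6%, Gad2 in 94.9% and Slc32a1 in 16.7% of them. The median neuron had 126576 counts over 4527.5 genes, so the threshold lay at about 12.7 counts. A cell below it can hold counts of the gene. The 376 well barcodes were mostly used again, with 368 present in at least 2 samples. Summed oligodendrocyte markers, all 6 of which had counts, reached 4314 CPM (summed counts scaled to the total gene counts of the same cells) in the Prkcd-negative neurons of one sample, against a median of 88.2 CPM over the samples, and their part in the results was not tested beyond the values given for neurons without Mbp.

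The members fell into a widely detected set and a rare one. Dlx5 was positive in 177 of 810 neurons, a mean of 21.7% ± 5.14 (SD, n = 9 samples), with a lowest, median and highest sample of 13.4%, 21.5% and 30.1%. Dlx6, the other gene of that pair, was positive in 127 neurons, 15.6% ± 5.68, with 5.95%, 15.1% and 24.2%. Both varied more than 2-fold between samples, and the highest Dlx5 share was in sample 5 whereas the highest Dlx6 share was in sample 1. Dlx6as1 was positive in 83 neurons (10.3% ± 3.43), with 5.38%, 9.68% and 17.4%. Sp9 was positive in 97 neurons (12.1% ± 3.89), with 4.21%, 12.6% and 16.3%. Pax6 was positive in 79 neurons (9.83% ± 2.13) and was the steadiest of the 5, with 8.14%, 8.89% and 14.6%. The mean shares of Dlx6as1, Sp9 and Pax6 differed by less than the SD of the Sp9 share.

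Dlx1, Dlx2 and Sp8 were rare. Dlx1 and Dlx2 were each positive in 18 neurons, 2.22% ± 0.794 for Dlx1 and 2.22% ± 1.41 for Dlx2, and Sp8 in 11 neurons, 1.39% ± 1.73. Sp8 had no positive neuron in 4 samples, and its summed level was 0.143 CPM in the lowest sample, 1.47 in the median and 12.0 in the highest. Any count at all was found in 43 neurons for Dlx1, 51 for Dlx2 and 45 for Sp8, against 365 for Dlx5, 439 for Dlx6, 178 for Dlx6as1, 269 for Sp9 and 163 for Pax6. Positive neurons carried a median of 17 to 27 counts of the gene across the 8 members. They held 64.7% of all Dlx6 counts and 88.0% of all Pax6 counts, so Dlx6 was the more spread over cells below the threshold.

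**Figure D1:**
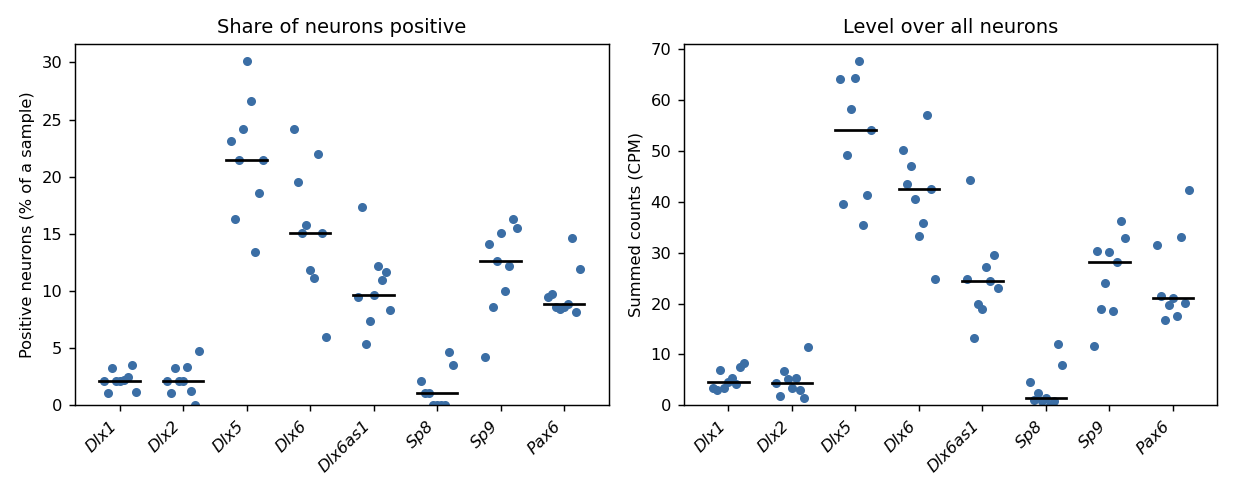
Each point is 1 of the 9 samples. The left panel gives the percentage of its inhibitory neurons positive for the gene and the right panel the gene's summed counts (CPM) over the same neurons; black lines are medians. Dlx5 has the highest median share, 21.5%, and Dlx1, Dlx2 and Sp8 stay under 5% in all 9 samples. CPM is not corrected for gene length, so the right panel compares samples, not genes.

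In all, 431 neurons (53.2%) were positive for at least 1 member. Of these, 283 had exactly 1 member, 120 had 2, 26 had 3, 1 had 4 and 1 had 5, and 379 neurons had none. Most neurons with a member were thus positive for a single one at this threshold.

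Within the Dlx genes, the clearest overlap was between Dlx6 and its antisense RNA Dlx6as1. They were positive together in 25 neurons, against 13.4 expected if the genes were independent inside each sample. The log2 odds ratio per sample averaged 1.40 ± 0.95 (SD) and was above 0 in 8 of 9 samples (exact permutation test that flips the sign of each sample's value, two-sided, unadjusted p = 0.00781). Among 9898 genes positive in at least 2% of neurons, 9.96% passed 0.05 in that direction with Dlx6 and 19.3% with Dlx6as1. The shared cells themselves, observed minus expected, gave the same exact p of 0.00781; by that measure 2.96% of genes passed upwards with Dlx6 and 3.19% with Dlx6as1. In the RefSeq annotation Dlx6 lies wholly inside Dlx6os1, and no source used here says whether counting used the strand, so reads of the pair cannot be told apart with certainty.

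Dlx5 and Dlx6, neighbours that share enhancers, were positive together in 35 neurons against 26.8 expected, with a log2 odds ratio of 0.70 ± 1.07 (exact p = 0.0898; 6.86% of genes passed upwards with Dlx5). It passed when any count made a cell positive (exact p = 0.0117), a threshold that follows sequencing depth. Dlx1 and Dlx2, the other neighbouring pair, shared 3 neurons against 0.374 expected. Each gene had only 18 positive neurons, and an odds ratio with 0.5 added to each field runs above 0 by construction for such genes, so that 52.4% of all genes passed upwards with Dlx1 and 53% with Dlx2. Counts are therefore given for these pairs in place of a test. Dlx1as, the antisense neighbour of Dlx1, had 66 counts in all, in 11 neurons. Pax6 overlaps Pax6os1 in RefSeq, which was not used here.

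Among the zinc-finger and paired-box members, Sp9 and Pax6 were positive together in 14 neurons against 9.5 expected. The log2 odds ratio averaged 1.03 ± 0.90 and was above 0 in 8 of 9 samples (exact p = 0.0117), a mark that 14.1% of genes reached upwards with Sp9 and 18.7% with Pax6. The observed minus expected count missed it (exact p = 0.0625). Dlx6 and Pax6 went the other way, with 6 shared neurons against 12.5 expected (exact p = 0.0312 for observed minus expected, 0.0781 for the odds ratio). By the first measure 6.22% of genes passed downwards with Pax6 and 4.15% with Dlx6. Sp8 shared 4 of its 11 neurons with Pax6 against 1.06 expected, and 1 with Sp9 against 1.43.

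**Figure D2:**
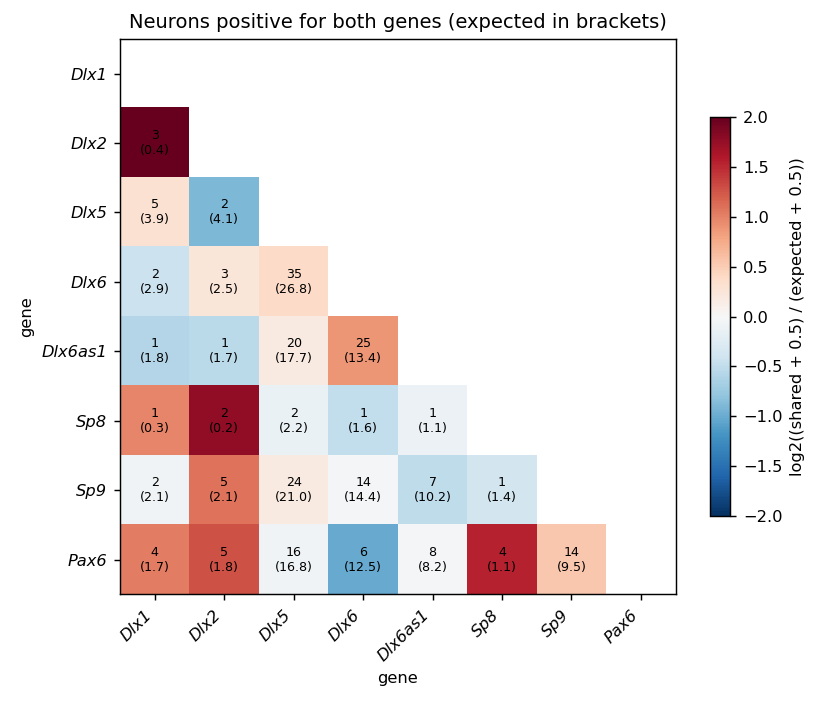
Each square gives the number of neurons positive for both genes, with the number expected from each sample's shares in brackets; the colour is the log2 of their ratio after adding 0.5 to each. Dlx6 with Dlx6as1 (25 against 13.4) is the largest gap in cells, and Dlx6 with Pax6 (6 against 12.5) lies below expectation. Squares of Dlx1, Dlx2 and Sp8 rest on 5 shared neurons or fewer.

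The first division asked how Prkcd-positive neurons (343 cells) differed from Prkcd-negative ones (467 cells). Sp9 was the member that rose. It was positive in 18.1% ± 4.95 of Prkcd-positive neurons and 7.77% ± 4.53 of Prkcd-negative neurons (SD, n = 9), higher in 9 of 9 samples (exact two-sided sign-flip p = 0.00391, the smallest that 9 samples can give). At an unadjusted p under 0.05, 10.7% of 9898 genes were higher and 13.8% lower in this division. Summed Sp9 counts ranged over 26.6, 37.4 and 55.8 CPM (lowest, median, highest sample) in Prkcd-positive neurons, against 2.10, 13.9 and 30.4 CPM in Prkcd-negative neurons. The groups overlapped, but every sample's positive cells stood above its own negative cells. Its log2 fold change was 1.53 ± 0.37 (SE; edgeR quasi-likelihood test with sample as a block, adjusted p = 0.0103 over all genes), and the adjusted p stayed between 0.00894 and 0.029 with each sample left out. Where any Prkcd count made a neuron positive, the fold change was 1.17 (adjusted p = 0.201). Of 7 members tested, Sp9 was the one called, with 7.59% of 11486 genes higher and 9.74% lower.

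The Dlx6 locus leaned the other way in these neurons. Dlx6 was positive in 12.1% ± 7.15 of Prkcd-positive neurons and 17.7% ± 6.46 of Prkcd-negative ones (exact p = 0.0117, lower in 8 of 9 samples), but its summed counts did not pass (log2 fold change -0.29 ± 0.18, edgeR adjusted p = 0.306). Dlx6as1 was positive in 6.11% ± 3.02 of Prkcd-positive neurons and 13.6% ± 7.26 of Prkcd-negative ones (exact p = 0.043), with a log2 fold change of -0.93 ± 0.33 (edgeR adjusted p = 0.0668). Leaving out sample 1, 2, 5, 6, 7 or 8 brought the exact p for the Dlx6as1 share to between 0.0703 and 0.0859. Pax6 was positive in 8.0% ± 2.11 of Prkcd-positive neurons and 11.1% ± 3.32 of Prkcd-negative ones (exact p = 0.0391), and leaving out any of samples 4 to 9 brought that p to 0.0625 or 0.0781. Mbp was positive in 30.9% of Prkcd-positive and 22.3% of Prkcd-negative neurons, and without the Mbp-positive neurons the exact p was 0.0859 for the Dlx6, 0.0508 for the Dlx6as1 and 0.0664 for the Pax6 share. Dlx5 shares were 23.9% ± 6.88 in Prkcd-positive and 20.1% ± 6.76 in Prkcd-negative neurons (exact p = 0.227), a difference inside the spread between samples.

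Counts for the gene lists around the members stand beside the 7.59% of all genes higher and 9.74% lower. Of 8 GABA neuron genes tested that act downstream of Dlx or beside it, 2 fell: the vesicular GABA transporter Slc32a1 (log2 fold change -0.63 ± 0.16, edgeR adjusted p = 0.0129) and the GABA-synthesising enzyme Gad2 (-0.25 ± 0.06, adjusted p = 0.0106). The genes of indirect-pathway striatal neurons linked to Sp9 split, with 2 of 8 higher and 2 lower. The purinergic receptor P2ry1 was higher (1.42 ± 0.34), whereas the orphan receptor Gpr6 (-4.37 ± 0.73) and the dopamine receptor Drd2 (-3.35 ± 0.61) were lower in Prkcd-positive neurons. The median log2 fold change of those 8 genes was -0.26, against -0.02 over all genes tested. Of the caudal and medial eminence interneuron genes 6 of 8 tested were lower and 1 higher, with a median of -2.95. Npy was among the lower (-6.94 ± 0.58), but in 7 of 9 samples only. Its level was uneven, at 323 ± 664 CPM (SD) in Prkcd-negative neurons. The higher one was the calcium-binding protein Pvalb, with 504 counts in Prkcd-positive and 2 in Prkcd-negative neurons. Of the lateral eminence and intercalated cell genes 3 of 8 were lower, with a median of -1.32: Drd1a (-6.84 ± 0.71), Rarb (-4.03 ± 1.23) and the receptor Erbb4 (-3.48 ± 0.79). The immature neuron genes had 2 of 4 lower, Cd24a (-2.81 ± 0.80) and the tubulin Tubb3 (-0.53 ± 0.07).

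In Sst-positive neurons (148 cells against 662 Sst-negative ones) Sp9 was nearly missing and the Dlx5 and Dlx6 locus was raised. Sp9 was positive in 1 of 148 Sst-positive neurons, a sample mean of 0.556% ± 1.67, and in 96 of 662 Sst-negative ones, 14.4% ± 4.25 (exact p = 0.00391, lower in 9 of 9 samples). Its summed level was 0, 1.98 and 12.5 CPM (lowest, median, highest sample) in Sst-positive neurons, against 15.6, 33.6 and 41.6 CPM in Sst-negative neurons, so the groups did not overlap. Sp9 had 54 counts in all Sst-positive neurons and 2849 in the Sst-negative ones, and 15 Sst-positive neurons held a count. The log2 fold change was -4.09 ± 0.71 (edgeR adjusted p = 0.00489). Where any Sst count made a neuron positive, it was -0.43 (adjusted p = 0.94). Of 9898 genes, 9.59% had a lower and 5.5% a higher share at an unadjusted p under 0.05.

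Dlx6 was positive in 30.6% ± 12.0 of Sst-positive neurons and 12.0% ± 3.94 of Sst-negative neurons, higher in 9 of 9 samples (exact p = 0.00391). Its summed counts were 26.0, 74.8 and 105 CPM in Sst-positive neurons, against 24.7, 33.3 and 47.9 CPM in Sst-negative ones, a log2 fold change of 1.14 ± 0.20 (edgeR adjusted p = 0.00603; log2 fold change 0.68 with any Sst count as positive, adjusted p = 0.509). Dlx6as1 showed the larger fold change, 1.80 ± 0.37 (edgeR adjusted p = 0.0123), with 9.998, 60.7 and 127 CPM in Sst-positive neurons against 9.81, 14.7 and 24.7 CPM in Sst-negative ones. With any Sst count as positive its log2 fold change was 1.29 (adjusted p = 0.636). It was positive in 24.7% ± 13.9 of Sst-positive neurons and 6.96% ± 2.25 of Sst-negative ones (exact p = 0.0117, higher in 8 of 9 samples). For both genes the range over samples was wider in Sst-positive than in Sst-negative neurons, and the groups overlapped.

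Mbp, an oligodendrocyte gene, was positive in 33.8% of Sst-positive neurons and 24.2% of Sst-negative neurons. Without the Mbp-positive neurons, which leaves 600, the log2 fold changes were 1.19 for Dlx6 (edgeR adjusted p = 0.0376) and 1.77 for Dlx6as1 (adjusted p = 0.101). With equal numbers of cells in both classes they were 1.09 for Dlx6 (adjusted p = 0.0706) and 3.22 for Dlx6as1 (adjusted p = 0.0475), so the direction held in both while each gene's call was lost in 1 of these 2 fits.

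Dlx5 had the smallest of the called differences, with 44.1, 75.9 and 132 CPM in Sst-positive neurons against 33.3, 45 and 64.1 CPM in Sst-negative neurons. Its log2 fold change was 0.77 ± 0.19 (edgeR adjusted p = 0.0305, higher in 9 of 9 samples). It missed the threshold when sample 1 (adjusted p = 0.091), 3 (0.0601), 5 (0.0844), 6 (0.0525) or 8 (0.0646) was left out. It also missed it with equal cell numbers (log2 fold change 0.89, adjusted p = 0.243), without Mbp-positive neurons (0.68, 0.302), with no filter on low counts (0.72, 0.0774), with cells thinned to 74000 counts (0.70, 0.0748) and with any Sst count as positive (0.88, 0.352). The Dlx5 shares did not differ beyond the spread, at 27.4% ± 14.8 in Sst-positive and 20.1% ± 4.25 in Sst-negative neurons (exact p = 0.199). In all, 4 of 7 members tested were called, 3 higher and 1 lower, with 2.25% of 11354 genes higher and 2.26% lower.

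Pax6 and Dlx1 did not pass the edgeR test on counts in Sst-positive neurons, while DESeq2 called both lower (adjusted p = 0.000496 for Pax6 and 0.00395 for Dlx1). Pax6 had 0, 5.30 and 26.5 CPM in Sst-positive neurons and 18.4, 25.3 and 46.6 CPM in Sst-negative neurons, lower in 9 of 9 samples (log2 fold change -2.48 ± 0.74, edgeR adjusted p = 0.0817). Its share was 4.85% ± 6.89 in Sst-positive and 10.9% ± 1.71 in Sst-negative neurons (exact p = 0.0273), and leaving out sample 1, 3, 5, 8 or 9 brought p to 0.0547. Dlx1 and Dlx2 were each positive in 1 of 148 Sst-positive neurons and in 17 of 662 Sst-negative ones. The exact p was 0.0352 for the Dlx1 share, which rose above 0.05 when any sample but sample 5 was left out (0.0547 to 0.0703), and 0.125 for the Dlx2 share.

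The neurons with both Dlx6 and Dlx6as1 were mostly Sst-positive. Of those 25 neurons, 19 (76%) were Sst-positive and 3 Prkcd-positive, against 28.4% Sst-positive of 102 neurons with Dlx6 alone, 31.0% of 58 with Dlx6as1 alone and 13.1% of 625 with neither. Of the 14 neurons with both Sp9 and Pax6, 0 were Sst-positive, which allows a share of up to 21.4%, and 8 were Prkcd-positive. Within the Sst-positive neurons, Dlx6 was positive in 40.7% of the 86 that also had the peptide precursors Crh, Tac2 or Nts and in 21.0% of the 62 that had none. The corresponding Dlx5 shares were 37.2% and 17.7%, whereas those of Dlx6as1 were alike, at 24.4% and 25.8%. These are pooled over cells and were not tested. In the 23 neurons positive for both Prkcd and Sst, 0 were positive for Sp9, which allows a share of up to 13%, against 19.1% of the 320 with Prkcd alone.

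Other genes around the members also differed in Sst-positive neurons. The opioid precursor Penk, of the indirect-pathway list, fell (-1.24 ± 0.19, edgeR adjusted p = 0.00185), 1 of 6 tested. Of the genes of the lateral eminence and intercalated cells 2 of 9 rose and 2 fell. The zinc-finger gene Zfp503 rose by 1.17 ± 0.29 (adjusted p = 0.0365), and the opioid receptor Oprm1 (-4.92 ± 1.12) and the ETS factor Etv1 (-3.31 ± 0.85) fell. In the GABA list, Gad2 rose by 0.47 ± 0.09 (adjusted p = 0.00677).

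**Figure D3:**
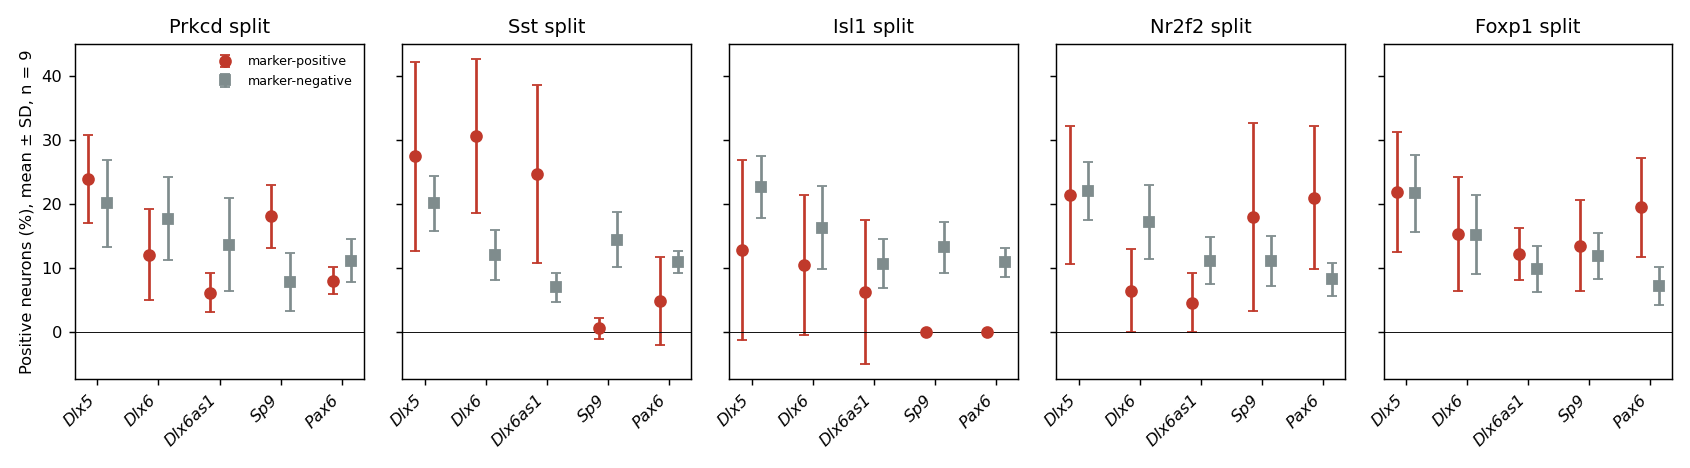
Each panel divides the neurons by 1 marker and gives the mean percentage of neurons positive for each gene, with red circles for marker-positive and grey squares for marker-negative neurons; bars are SD over 9 samples. Sp9 is at 18.1% against 7.77% in the Prkcd panel and at 0.556% against 14.4% in the Sst panel. It is at 0 in the Isl1-positive neurons, as is Pax6, which is at 19.5% against 7.17% in the Foxp1 panel.

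Isl1-positive neurons (76 cells against 734 Isl1-negative ones) lacked 5 of the 8 members at the threshold. None of the 76 was positive for Dlx1, Dlx2, Sp8, Sp9 or Pax6, and 0 of 76 allows a share of up to 3.95%. In Isl1-negative neurons Sp9 was positive in 13.2% ± 4.03 and Pax6 in 10.8% ± 2.28 (exact p = 0.00391 for each, lower in 9 of 9 samples). For Dlx1 the Isl1-negative share was 2.45% ± 0.849 (exact p = 0.00391), for Dlx2 2.45% ± 1.53 (0.00781) and for Sp8 1.53% ± 1.87 (0.0625). These shares lie under the 3.95% limit. With no positive cell in the Isl1-positive class, any positive Isl1-negative cell makes a sample's difference negative. The exact p of these rare genes therefore cannot tell absence from the small size of the class. The exact p was under 0.05 and the share lower for 10.9% of 9898 genes, and higher for 7.78%. The Isl1-positive neurons were the more deeply sequenced, with a median of 169576 counts against 123695 in Isl1-negative neurons.

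The summed counts gave the same picture. Sp9 had 12 counts in all Isl1-positive neurons and 2891 in Isl1-negative neurons, that is 0, 0 and 3.57 CPM (lowest, median, highest sample) against 14.4, 30.6 and 39.4 CPM (log2 fold change -6.89 ± 1.01, edgeR adjusted p = 0.0014). Pax6 had 6 counts in Isl1-positive and 2738 in Isl1-negative neurons, or 0, 0 and 2.57 CPM in the positive against 18.7, 23.4 and 45.8 CPM in the negative cells (-6.46 ± 0.96, adjusted p = 0.00152). Neither gene's groups overlapped. Dlx1 had 0 counts in Isl1-positive neurons and 582 in Isl1-negative neurons, which is at least 28.1-fold lower with a floor of 3 counts over the class (edgeR adjusted p = 0.027). These were 3 of 6 members tested, all lower, with 3.15% of 11168 genes lower and 1.69% higher. With equal cell numbers in both classes the 3 genes fell under the filter on low counts and were not tested.

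Dlx2 and Sp8 were below the filter. Dlx2 had 1 count in Isl1-positive neurons and 540 in Isl1-negative neurons, a ratio of 78.1 (95% counting interval 14 to 3092) in favour of the negative cells, and Sp8 had 2 counts against 334, a ratio of 24.2 (6.64 to 200.4). Dlx5, Dlx6 and Dlx6as1 were still present. Dlx5 had 2.93, 19.5 and 63.9 CPM in Isl1-positive neurons against 36.8, 54.4 and 70.9 CPM in Isl1-negative neurons (log2 fold change -1.30 ± 0.40, edgeR adjusted p = 0.0772), and Dlx6as1 had -2.82 ± 0.97 (adjusted p = 0.114). Dlx6 differed least, at -0.66 ± 0.38 (adjusted p = 0.344), and 49 of the 76 neurons held a Dlx6 count. The Dlx5 share was 12.8% ± 14 in Isl1-positive and 22.6% ± 4.84 in Isl1-negative neurons (exact p = 0.043), and leaving out any sample but 5 or 9 brought p to between 0.0625 and 0.0859.

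Around these factors, the lateral eminence gene Meis2, a TALE homeobox factor, fell by a log2 fold change of -1.52 ± 0.20 in Isl1-positive neurons (edgeR adjusted p = 0.000679), 1 of 9 tested in its list. Penk fell as well (-2.45 ± 0.30), and Gpr6 had 1 count in Isl1-positive neurons against 1899 in Isl1-negative neurons, a ratio of 275 (counting interval 49.3 to 10860) in favour of the negative cells. These were 2 of 6 tested. In the list of caudal and medial eminence interneurons 2 of 6 rose, the calcium-binding protein calretinin, Calb2 (2.48 ± 0.34), and the chromatin organiser Satb1 (2.16 ± 0.50). The summed oligodendrocyte markers were 29.7 to 118 CPM in Isl1-positive neurons against 91 to 2998 CPM in Isl1-negative neurons. Their part in these results was not tested apart from the fit without Mbp-positive neurons, in which Sp9 (-8.16, adjusted p = 0.000674) and Pax6 (-6.80, adjusted p = 0.00207) still passed.

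**Figure D4:**
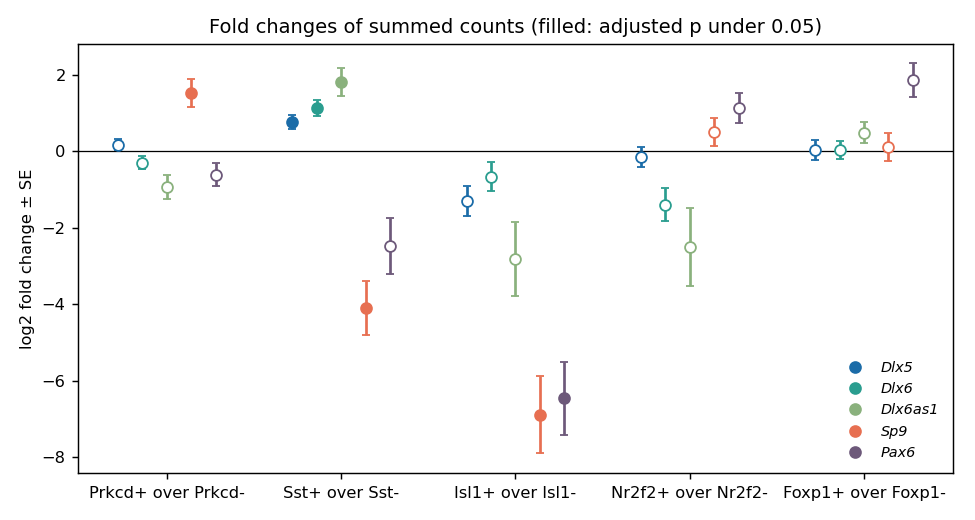
Points are log2 fold changes of summed counts, marker-positive over marker-negative neurons, with SE from edgeR; filled points passed an adjusted p of 0.05. Sp9 lies above 0 for Prkcd (1.53) and below 0 for Sst (-4.09) and Isl1 (-6.89). No point is filled for Nr2f2 or Foxp1.

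For Nr2f2 (116 positive against 694 negative neurons) the shares moved for 3 members and the summed counts passed for none. Dlx6 was positive in 6.43% ± 6.46 of Nr2f2-positive and 17.2% ± 5.78 of Nr2f2-negative neurons, lower in 9 of 9 samples (exact p = 0.00391). Dlx6as1 was positive in 4.56% ± 4.63 of Nr2f2-positive and 11.1% ± 3.71 of Nr2f2-negative neurons (exact p = 0.00781, lower in 8 of 9). Pax6 went up, to 21.0% ± 11.2 in Nr2f2-positive neurons against 8.20% ± 2.62 in Nr2f2-negative ones (exact p = 0.0195, higher in 8 of 9), though without Mbp-positive neurons the difference was 6.66 percentage points (exact p = 0.141). Of 9898 genes, 7.36% passed downwards and 3.25% upwards.

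The edgeR test called 0 of 8 members for Nr2f2, with 0.4% of 11007 genes higher and 1.28% lower. At an unadjusted p under 0.05 there were 3 members, and DESeq2 called 3. The summed Dlx6 level was 1.95, 25.2 and 38.9 CPM in Nr2f2-positive neurons against 29.4, 45.8 and 61.2 CPM in Nr2f2-negative neurons (log2 fold change -1.39 ± 0.43, edgeR adjusted p = 0.144). Pax6 was at 17.2, 49.4 and 94.2 CPM in the positive cells and 11.7, 17 and 45.7 CPM in the negative ones (1.14 ± 0.39, adjusted p = 0.198). Sp8 had 168 counts in each class, although the negative class held several times as many cells (2.13 ± 1.03, adjusted p = 0.381), and 6 of its 11 positive neurons were Nr2f2-positive. The Sp8 share was 4.40% ± 7.06 in Nr2f2-positive and 0.715% ± 1.15 in Nr2f2-negative neurons. It was higher in 3 samples and lower in 2 (exact p = 0.25). The related nuclear receptor Nr2f1 rose by 1.04 ± 0.21 (edgeR adjusted p = 0.0225) in Nr2f2-positive neurons. In its list, the caudal and medial eminence interneuron genes, 1 of 8 tested was higher and 2 were lower. The dopamine receptor Drd1a had 2 counts in Nr2f2-positive against 1117 in Nr2f2-negative neurons, a ratio of 81 (counting interval 22.4 to 670) in favour of the negative cells.

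Prkcd and Nr2f2 together gave the highest Sp9 share among the 4 combinations of these markers. Sp9 was positive in 29.8% of 47 neurons with both (exact binomial interval 17.3% to 44.9%), 15.9% of 296 with Prkcd alone, 11.6% of 69 with Nr2f2 alone and 7.04% of 398 with neither. The intervals of the first and second overlap (11.9% to 20.5% for Prkcd alone), and they cover counting error only. Sp9 in Nr2f2-positive against Nr2f2-negative neurons as a whole was 17.9% ± 14.7 against 11.1% ± 3.88 (exact p = 0.207).

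In the division by Foxp1 (167 positive against 643 negative neurons) the member that differed was Pax6. Pax6 was positive in 19.5% ± 7.70 of Foxp1-positive and 7.17% ± 2.96 of Foxp1-negative neurons (exact p = 0.0117, higher in 8 of 9 samples), with 3.91% of 9898 genes higher and 3.9% lower. Summed Pax6 counts were 16.7, 56.1 and 119 CPM in Foxp1-positive neurons against 4.84, 14.8 and 25.7 CPM in Foxp1-negative neurons. The log2 fold change of 1.86 ± 0.44 did not pass (edgeR adjusted p = 0.146), while DESeq2 gave an adjusted p of 0.000232. Without Mbp-positive neurons the Pax6 share difference was 9.85 percentage points (exact p = 0.0625, the smallest p allowed by 8 samples being 0.00781). Of 7 members tested 0 were called by edgeR, 2 had an unadjusted p under 0.05 and DESeq2 called 1. In this fit 0.159% of 11331 genes were higher and 0.0441% lower.

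Sp8 was positive in 0 of 167 Foxp1-positive neurons, which allows a share of up to 1.80%, and in 1.74% ± 2.22 of Foxp1-negative ones (exact p = 0.0625). Dlx5, Dlx6, Dlx6as1 and Sp9 shares differed between Foxp1-positive and Foxp1-negative neurons by 0.145 to 2.36 percentage points, less than the spread (exact p = 0.168 to 0.965). Pax6 was positive in 29.4% of the 17 neurons with both Nr2f2 and Foxp1, 18.2% of 99 with Nr2f2 alone, 18.7% of 150 with Foxp1 alone and 5.15% of 544 with neither. The exact binomial interval for the 17 neurons is 10.3% to 56.0%, which holds both single-marker shares. These shares are pooled over cells and were not tested. The retinoic acid receptor Rarb, of the lateral eminence list, rose in Foxp1-positive neurons (log2 fold change 3.02 ± 0.55, edgeR adjusted p = 0.0457).

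Turning the division round, Pax6-positive neurons (79 cells against 731) were compared with Pax6-negative ones across all genes. The edgeR test called 11 genes higher and 75 lower of 10833, that is 0.102% and 0.692%. Among called genes of at least 10 CPM that moved one way in every sample, the cholecystokinin precursor Cck rose most, with a log2 fold change of 2.98 ± 0.29 and means of 271 ± 232 CPM in Pax6-positive and 39.0 ± 30.9 CPM in Pax6-negative neurons (SD, n = 9; adjusted p = 0.000135). Foxp1 rose by 1.64 ± 0.26 (204 ± 132 CPM in Pax6-positive against 56.7 ± 17.9 CPM in Pax6-negative neurons, adjusted p = 0.00796). The myosin heavy chain gene Myh7 rose by 1.81 ± 0.22, the guanylate cyclase subunit Gucy1a3 by 1.76 ± 0.32, the uroplakin gene Upk1b by 1.54 ± 0.26, Nr2f1 by 0.94 ± 0.20 and the helix-loop-helix inhibitor Id4 by 1.16 ± 0.25.

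At the other end, by the same rule, were Nts, Dnahc5, Ctsz, Isl1, Tox and Cd302. The neurotensin precursor Nts averaged 0.716 ± 0.926 CPM in Pax6-positive neurons and 301 ± 134 CPM in Pax6-negative neurons (log2 fold change -8.48 ± 0.40, edgeR adjusted p = 1.27e-08). Isl1 had 3 counts in Pax6-positive neurons and 3745 in Pax6-negative neurons, a ratio of 113 (counting interval 38.5 to 546). The HMG-box factor Tox (-6.29 ± 1.15) also fell. Outside that rule, the neuropeptide Y precursor Npy (-5.26 ± 0.86) was called lower, but it fell in 7 of 9 samples only. Its level in Pax6-negative neurons was uneven, at 207 ± 441 CPM. None of the other members was called, as 0 of 7 passed in edgeR, with 2 at an unadjusted p under 0.05 and 2 in DESeq2. Sp9 was at 0.94 ± 0.41 (adjusted p = 0.35) and Dlx6 at -1.14 ± 0.47 (0.324). With equal cell numbers the Pax6 division called 0 genes in all.

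Sp9-positive neurons (93 cells against 622, 8 samples) were compared in the same way, without sample 1, which had under 5 Sp9-positive neurons. The edgeR test called 3 genes higher and 41 lower of 11118, or 0.027% and 0.369%. The imprinted gene Nnat (neuronatin) rose by a log2 fold change of 0.69 ± 0.07, with 1485 ± 218 CPM in Sp9-positive and 919 ± 114 CPM in Sp9-negative neurons (SD, n = 8; adjusted p = 0.000435). The mitochondrial fission gene Mtfp1 (0.66 ± 0.12) and the adaptor gene Pea15a (0.50 ± 0.09) also rose. By the same rule the dynorphin precursor Pdyn fell furthest, with 1.74 ± 1.23 CPM in Sp9-positive and 344 ± 127 CPM in Sp9-negative neurons (-7.67 ± 0.34, adjusted p = 5.25e-08). The tachykinin precursor Tac2 (-7.11 ± 0.41), Nts (-6.45 ± 0.62), Satb1 (-7.00 ± 1.33) and Isl1 (-6.80 ± 0.81) fell too. Equal cell numbers left 3 calls. Of the other members tested, 0 of 6 passed in edgeR, 0 at an unadjusted p under 0.05 and 0 in DESeq2. Pax6 was at 0.94 ± 0.44 (adjusted p = 0.448).

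The wider families gave no call. Of 14 further Dlx, Sp and Pax relatives and Dlx6as1 partners in the table, 6 passed the filter in each of the 7 divisions and edgeR called 0 of them in any. An unadjusted p under 0.05 was found for 1 in the Isl1, 1 in the Foxp1 and 2 in the Sp9 division, and DESeq2 called 1 in the Isl1 and 2 in the Sp9 division. The median log2 fold change over all genes was -0.02 for Prkcd, -0.17 for Sst, -0.34 for Isl1, -0.24 for Nr2f2, -0.13 for Foxp1, -0.36 for Pax6 and -0.26 for Sp9, so in all but the first of these divisions genes in general lay somewhat below 0 in the smaller class.

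The genes most alike to each member over the neurons, by the mean of the 9 within-sample Spearman correlations among genes with a count in at least 10% of neurons (described without a test), had low correlations throughout. Sp9 was closest to Nnat (0.33), the neural factor Sox2 (0.28) and Sox5 (0.26), and Pax6 to Myh7 (0.29), the retinoic acid enzyme Cyp26b1 (0.27) and the LDL-receptor relative Lrp1b (0.24). Dlx6as1 was closest to Tmem90a (0.34), the phosphoprotein gene Arpp21 (0.32) and Pcp4 (0.30), and Dlx6 to Camk2n1 (0.22), Tmem90a (0.21) and the collagen Col6a1 (0.21), so Tmem90a stood in both lists. Dlx5 was closest to Ppp1r1b, which encodes DARPP-32 (0.21), Pdzd2 (0.19) and Wipf3 (0.18). For the rare members, leading genes were Dolk (0.16) for Dlx1, Gpc3 (0.17) for Dlx2 and Cyp26b1 (0.23) for Sp8, and Nr2f2 was among the leading genes of Dlx1 (0.15) and Sp8 (0.21). All cells of a sample share a library and their depth varies, which such correlations also carry.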

How the data were processed

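The authors deposited raw counts per gene and cell, with spike-in rows and a table giving each cell's animal number and date field. The submitters' processing notes name the build NCBIM37 and the tool Seurat. The sources used here name no aligner, annotation, counting strand or molecular identifiers, so intervals and floors cover counting error only. Spike-in rows were dropped. Cells were assigned to samples from the deposited cell table, and 0 columns were unmatched. No doublet caller was run and no cell was removed for low counts; 9 neurons had under 20000. Thinning used seed 7.

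Counts were summed per sample and class, for samples with at least 5 cells in each class, and tested with edgeR 4.0.16 (R 4.3.3; TMM, filterByExpr, quasi-likelihood test, sample as block), with Benjamini-Hochberg adjustment over all genes tested at 0.05. The fit was checked on simulated counts. DESeq2 1.42.0 was an alternative. Shares of positive cells and log2 odds ratios, with 0.5 added, were compared over samples by an exact two-sided sign-flip permutation test (scipy 1.17.1), given unadjusted beside the percentage of all genes that passed. The members and gene lists were chosen with earlier results of these data known. Named were all members, up to 3 called genes per list by fold, and in the Pax6 and Sp9 divisions up to 6 genes a side of at least 10 CPM and one direction in every sample. Of these, those that illustrate each group are given, and a few called genes are not reported here. Nearest genes were to be ranked after subtracting sample means, which followed the samples' zeros; correlations within samples replaced that after the data were seen. Promoters were available in the table for 6 of 8 members.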

Additional observations from a re-analysis of the deposited data

How the results depend on the processing

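Counts of called genes depended on the setting. With DESeq2 they were 1494 for Sst (513 by edgeR), 2153 for Isl1 (541), 1298 for Nr2f2 (185), 545 for Foxp1 (23), 1192 for Pax6 (86) and 850 for Sp9 (44). Without Mbp-positive neurons they were 199 for Sst, 296 for Isl1, 67 for Nr2f2 (8 samples), 3 for Foxp1 (8 samples), 40 for Pax6 (8 samples) and 24 for Sp9. With equal cell numbers, which leaves fewer cells, they were 217, 34, 7, 11, 0 and 3 in the same order. With any count as positive they were 655 for Prkcd (1991), 13 for Sst, 2 for Foxp1, 3 for Pax6 and 332 for Sp9 (9 samples). With 3 counts per 10000 they were 12 for Nr2f2 (6 samples) and 88 for Foxp1 (7 samples). Isl1, Pax6 and Sp9 could not be fitted there for want of cells. In the main setting Nr2f2, Foxp1 and Pax6 had 9 samples and Sp9 had 8, so some of these fits differ in samples too. Thinning to 74000 counts gave 38 for Pax6 and 27 for Sp9.

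Leaving out 1 sample gave 1678 to 1817 calls for Prkcd, 319 to 460 for Sst, 394 to 476 for Isl1, 84 to 139 for Nr2f2, 1 to 41 for Foxp1, 41 to 71 for Pax6 and 11 to 45 for Sp9. The sample is a block in these fits, since both classes come from the same sample. With no replicate block the calls were 1810 for Prkcd, 473 for Sst, 503 for Isl1, 156 for Nr2f2, 24 for Foxp1, 83 for Pax6 and 66 for Sp9, and every called member stayed called.

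Of 40 share differences 12 passed when adjusted over those 40. Among the 12 are Dlx1 and Dlx2 by Isl1, whose exact p cannot tell absence from the small class. In other settings 0 passed with 3 counts per 10000, 4 without Mbp-positive neurons and 7 to 9 with a sample left out. When adjusted over all genes (chosen after seeing the data) 1 passed. Of 21 pairs 9 passed by odds ratio. All of the 9 but Dlx6 with Dlx6as1 and Sp9 with Pax6 hold Dlx1 or Dlx2. For Dlx1 and Dlx2 this odds ratio runs above 0 by construction, and 52.4% and 53% of all genes passed upwards unadjusted. Dlx1 with Dlx6as1 passed with 1 shared neuron against 1.76 expected. In other settings 1 pair passed with 3 counts per 10000, 5 after thinning and 8 to 10 with a sample left out. By observed minus expected cells (chosen after seeing the data) 0 passed. With any count as positive the share difference reversed to 1.503 points for Pax6 by Prkcd and to 0.53 for Dlx1 by Sst, and the edgeR calls of Sp9 by Prkcd (1.17) and Sp9 (-0.43), Dlx5, Dlx6 and Dlx6as1 by Sst were lost. Causes were not tested. Positive calls rest on about 12.7 counts in the median neuron, so an absent call does not show an absent gene.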

Other observations

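The 19 cells left out of the inhibitory neurons held members as well. Of these, 2 were positive for Dlx5, 1 for Dlx6as1 and 2 for Pax6, and none for Dlx1, Dlx2, Dlx6, Sp8 or Sp9. Among them 8 had under 20000 counts, 1 was positive for Slc17a7, 1 for Slc17a6 and 3 for Mbp. They are values of cells in no group of the comparisons.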
